A study of Caenorhabditis elegans with 2 samples.

Results

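The saposin-like (spp-) and lysozyme (lys- and ilys-) genes of Caenorhabditis elegans were examined for binding of NHR-77 near their starts. They were chosen by name, as every protein-coding gene whose name is spp-, lys- or ilys- and a number, which gave 47 of 19973 protein-coding genes of the nuclear chromosomes. Of these, 31 were saposin-like genes, 10 were protist-type lysozymes (lys-) and 6 were invertebrate-type lysozymes (ilys-). Binding was measured by chromatin immunoprecipitation with sequencing (ChIP-seq), in which DNA bound to a protein is recovered with an antibody and mapped along the genome. NHR-77 is a nuclear hormone receptor, and it was expressed as an eGFP fusion from the transgene wgIs353 in strain OP353, which also carries the unc-119 allele tm4063 on chromosome III. Both samples were whole larvae of the L4 stage with the sexes mixed, labelled biological replicates 1 and 2, and they formed 1 group. No untagged strain was analysed here, and the sources used here do not give the strain or type of the control used for calling. Because whole larvae were used, a region bound in few cells and a region bound weakly in many cells cannot be told apart. The labels do not say in which cells the fusion protein is made.

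Saposin-like proteins are small proteins that bind lipids. Several of them in C. elegans, called caenopores, open pores in bacterial membranes, and SPP-1 and SPP-5 are the best known of these in the intestine. Lysozymes cut the peptidoglycan of bacterial cell walls, and in the worm they serve both the digestion of bacterial food and the defence against infection. Many intestinal genes of the worm carry upstream GATA sites, often written TGATAA, which are bound by the GATA factor ELT-2.

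The authors deposited 30000 regions for each replicate and 30000 for both replicates pooled, with peaks and background in the same list. They also deposited a set of 3457 regions, named optimal, thresholded by irreproducible discovery rate (IDR), a measure of how alike regions rank in both replicates. Only regions of that set are called peaks below. Each region has the authors' signal, an enrichment value that was used only to rank regions within a list (rank 1 is the strongest), and the authors' −log10 q. For each saposin-like or lysozyme gene with a peak, the peak had the same rank in the set as in the pooled list. This held down to the spp-2 peak, at rank 3453 of 3457. Down to that rank the set was thus made up of the strongest regions of the pooled list. Being a peak therefore does not show that a region ranked alike in both replicates. A peak need not rank high in each replicate alone. The peak of spp-1, for instance, ranked 3323 in the set, 3800 in replicate 1 and 4734 in replicate 2. Signal ran from 46.7 to 596 in the set of peaks and from 9.01 to 596 in the pooled list. Its range was 5.11 to 233 for replicate 1 and 5.39 to 385 for replicate 2. Read depth is unknown, so the Wilson 95% intervals given below cover the counting of genes only. The gene nhr-77 itself had no region within 500 bp of a start in any list, and unc-119 had no peak.

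Peaks stood near the starts of 7 saposin-like genes, spp-1, spp-2, spp-3, spp-5, spp-8, spp-14 and spp-18, and of the protist-type lysozymes lys-1 and lys-8. A gene was counted when the summit of a peak lay within 500 bp of any annotated start. This gave 9 of 47 genes, or 19.1% (interval 10.4 to 32.5%), beside 10.3% of all protein-coding genes. By family the share was 22.6% of the saposin-like genes (7 of 31, interval 11.4 to 39.8%) and 20.0% of the lys- genes (2 of 10, interval 5.67 to 51.0%). None of the 6 ilys- genes had a peak (interval 0.0 to 39.0%). The intervals treat genes as independent draws, although each family was counted whole and many of the genes lie in clusters. No test was made of these shares against the other genes, since the genes were named with earlier results of these data known.

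The count was not the same in each replicate. Among the 3457 strongest regions of replicate 2 taken alone, 11 of the 47 genes had a summit within 500 bp, or 23.4%, beside 10.1% of all genes. Among the 3457 strongest regions of replicate 1, only spp-5, spp-8, spp-18 and lys-8 did, which is 4 genes or 8.51%, beside 9.87% of all genes. In replicate 1 alone the share was thus close to that of all genes. A region of rank 1644 in replicate 1 overlapped only the edge of the peak of a further gene, spp-3. The summit of that region lay 507 bp upstream, just past the distance limit.

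**Figure D1:**
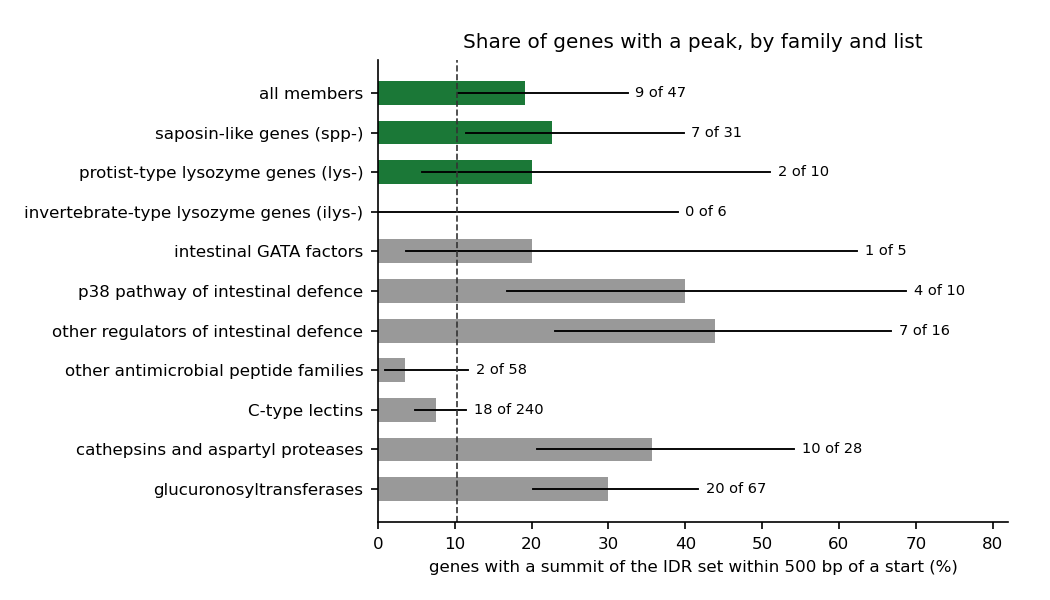
Share of genes with the summit of a peak within 500 bp of a start (horizontal axis, percent) as bars, for the saposin-like and lysozyme genes (green) and the other gene lists described below (grey), with Wilson 95% intervals as black lines. The 9 of 47 genes stand at 19.1%, the dashed line marks the 10.3% of all protein-coding genes, and the ilys- genes stand at 0 of 6.

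The bases at the summits are shown for these 9 genes because the peaks hold recurring short words. Each is given 5′ to 3′ in the direction of its gene, from the RefSeq genome of assembly WBcel235, which is ce11. For 7 genes the stretch runs from 50 bases before to 50 bases after the summit. For spp-1 and spp-2, whose summits lie in an exon of the gene itself outside its coding sequence, a stretch of 30 bases around the matched letters is given. Capitals mark the GATA words (TGATAA at 7 genes, and also AGATAA at spp-14), the E-box CACGTG (spp-2 and spp-18) and the half-site AGGTCA (spp-3), each read on either strand. The stretches are spp-1 at chrIII:10355589-10355618, minus strand, spp-2 at chrX:7316806-7316835, minus strand, spp-3 at chrX:7315546-7315646, minus strand, spp-5 at chrX:7320448-7320548, minus strand, and spp-8 at chrIV:8481429-8481529, plus strand. The others are spp-14 at chrX:7725832-7725932, plus strand, spp-18 at chrIV:9593593-9593693, plus strand, lys-1 at chrV:10277695-10277795, plus strand, and lys-8 at chrII:5585942-5586042, plus strand.
spp-1: ccTTATCAgtgccgccgcgaagtTGATAAa
spp-2: aaatccgctattCACGTGattcgctcaaca
spp-3: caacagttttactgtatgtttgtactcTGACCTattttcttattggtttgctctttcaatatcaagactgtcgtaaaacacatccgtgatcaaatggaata
spp-5: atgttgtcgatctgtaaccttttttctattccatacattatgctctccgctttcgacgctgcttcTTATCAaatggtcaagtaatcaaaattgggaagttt
spp-8: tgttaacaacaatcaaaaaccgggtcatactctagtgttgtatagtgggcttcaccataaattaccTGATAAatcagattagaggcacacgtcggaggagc
spp-14: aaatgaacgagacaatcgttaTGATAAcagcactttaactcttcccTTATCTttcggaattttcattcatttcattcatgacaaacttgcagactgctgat
spp-18: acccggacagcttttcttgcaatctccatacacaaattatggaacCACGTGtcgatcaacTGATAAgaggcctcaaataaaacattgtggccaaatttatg
lys-1: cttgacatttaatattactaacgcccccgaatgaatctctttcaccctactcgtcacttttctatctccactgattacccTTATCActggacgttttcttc
lys-8: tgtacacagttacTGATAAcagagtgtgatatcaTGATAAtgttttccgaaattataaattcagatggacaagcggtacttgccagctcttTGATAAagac

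The word TGATAA, read on either strand, lay within 50 bp of the summit in 7 of the 9 peaks (77.8%). The same word lay as near to the summit in 28.9% of all 3457 peaks, and as near to an annotated start at 10.3% of the 29773 starts of protein-coding genes. The 7 peaks were those of spp-1, spp-5, spp-8, spp-14, spp-18, lys-1 and lys-8. Together they held 10 copies, 3 of them at lys-8 and 2 at spp-1, and 8 of the 10 lay upstream of the start. A match is a description of letters and was not tested for binding by any factor.

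The longer word CTGATAA, which contains TGATAA, lay at 4 of the 9 peaks (spp-1, spp-8, spp-18 and lys-8), or 44.4%, beside 11.7% of all peaks. The related word AGATAA was found at spp-14 only, 1 of 9, beside 8.5% of all peaks. The E-box CACGTG lay at spp-2 and spp-18, beside 5.55% of all peaks. Only at spp-18 did TGATAA and CACGTG stand together, centred 12 bp after and 3 bp before the summit. The nuclear receptor half-site AGGTCA was found at spp-3, beside 3.15% of all peaks, and GTAAACA, a word bound by forkhead factors such as DAF-16, was found at none, beside 2.83%. The peaks of spp-2 and spp-3 had no TGATAA within 50 bp of the summit. With a window of 100 bp the count was 8 of 9, spp-3 included, beside 41.6% of all peaks, and with 25 bp it was 5 of 9 beside 16.7%.

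TGATAA was frequent upstream of these genes whether or not they had a peak. In the 500 bases before the start it stood at 9 of the 9 genes with a peak, at 29 of the 38 without one (76.3%) and at 43.7% of all genes. CTGATAA stood at 7 of 9 with a peak, at 11 of 38 without (28.9%) and at 12.2% of all genes. The upstream bases of the genes with a peak had a median G+C content of 31.0% (range 27.8 to 38.8%). The median was 33.3% for those without (26.8 to 43.0%) and 33.8% for all genes (16.2 to 61.6%). These ranges overlapped widely, and no difference in base makeup was tested.

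Among the saposin-like genes, the strongest peak was that of spp-5, which encodes a caenopore. It lay at chrX:7320318-7320677, upstream of the gene (chrX:7319937-7320354, minus strand), in sequence between genes, and its summit was 144 bp before the start. It ranked 289 of 3457 with a signal of 134. The overlapping region ranked 221 in replicate 1 (signal 53.5, −log10 q 3.67) and 529 in replicate 2 (signal 74.4, −log10 q 4.01). Its summit was 135 and 155 bp before the start in the replicates, so rank and place were both close.

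The regions of spp-8 and spp-18 were also among the 3457 strongest of both replicates, with spp-18 low among these in replicate 1. The spp-8 peak (chrIV:8481299-8481658, summit 185 bp upstream) ranked 937 in the set with a signal of 87.3, 1275 in replicate 1 with a signal of 29.3, and 837 in replicate 2 with a signal of 62.2. The spp-18 peak (chrIV:9593463-9593822, summit 69 bp upstream) ranked 1259 in the set with a signal of 77.7, 2753 in replicate 1 with 20.7 and 1060 in replicate 2 with 57.3. Both lay between genes. Their summits moved between the replicates by less than 20 bp.

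The peak of spp-14 rested mainly on replicate 2. It lay at chrX:7725702-7726061, 97 bp upstream of the start and inside an exon of the noncoding RNA gene K09F5.9. It ranked 1561 in the set with a signal of 70.3. Its region ranked 1195 in replicate 2 with a signal of 54.4, and 5581 in replicate 1 with a signal of 14.2 and a −log10 q of 2.18, well below the 3457 strongest.

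The peaks of spp-1, spp-2 and spp-3 were weaker. The peak of spp-1, the other well-studied caenopore gene, lay at chrIII:10355456-10355815 with its summit 32 bp after the start, in an exon outside the coding sequence, and ranked 3323 with a signal of 47.8. Its region ranked 3800 in replicate 1 (signal 17.5) and 4734 in replicate 2 (signal 25.2), so it was among the 3457 strongest of neither replicate alone. A second, stronger peak of rank 2264 and signal 59.1 lay at chrIII:10354683-10355042, 805 bp after the start and thus outside the limit. The spp-2 peak (chrX:7316610-7316969, 28 bp after the start) ranked 3453 of 3457 with a signal of 46.7, so it stood at the edge of the set. Its region ranked 5132 in replicate 1 with a signal of 14.8 and 2227 in replicate 2 with a signal of 40.4. The spp-3 peak (chrX:7315416-7315775, 243 bp upstream) ranked 2111 with a signal of 61.2, and its overlapping region ranked 1644 in replicate 1 (signal 26.3) and 1150 in replicate 2 (signal 55.2). The replicate 1 region (chrX:7315702-7316017, summit 507 bp upstream) overlapped only the edge of the spp-3 peak. It nearly coincided with a second pooled region (chrX:7315650-7316009, rank 5016), which was not a peak. Replicate 1 thus listed no region centred at the spp-3 peak, while the replicate 2 summit lay 225 bp upstream.

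Among the protist-type lysozymes, lys-8 had the stronger peak. LYS-8 is an intestinal lysozyme that the transforming growth factor β pathway ligand DBL-1 is known to regulate. The peak lay at chrII:5585812-5586171 with its summit 186 bp upstream, in an exon of the noncoding RNA gene C17G10.12, whose start was the nearest of any gene. It ranked 741 with a signal of 96.4, and its region ranked 1710 in replicate 1 (signal 25.9) and 468 in replicate 2 (signal 77.4). The lys-1 peak (chrV:10277565-10277924, summit 159 bp upstream, between genes) ranked 3176 with a signal of 49.2. Its region ranked 3600 in replicate 1 (signal 18.0) and 2435 in replicate 2 (signal 38.5), with summits 105 and 194 bp upstream. Of this pair, only lys-8 was thus among the 3457 strongest in both replicates.

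**Figure D2:**
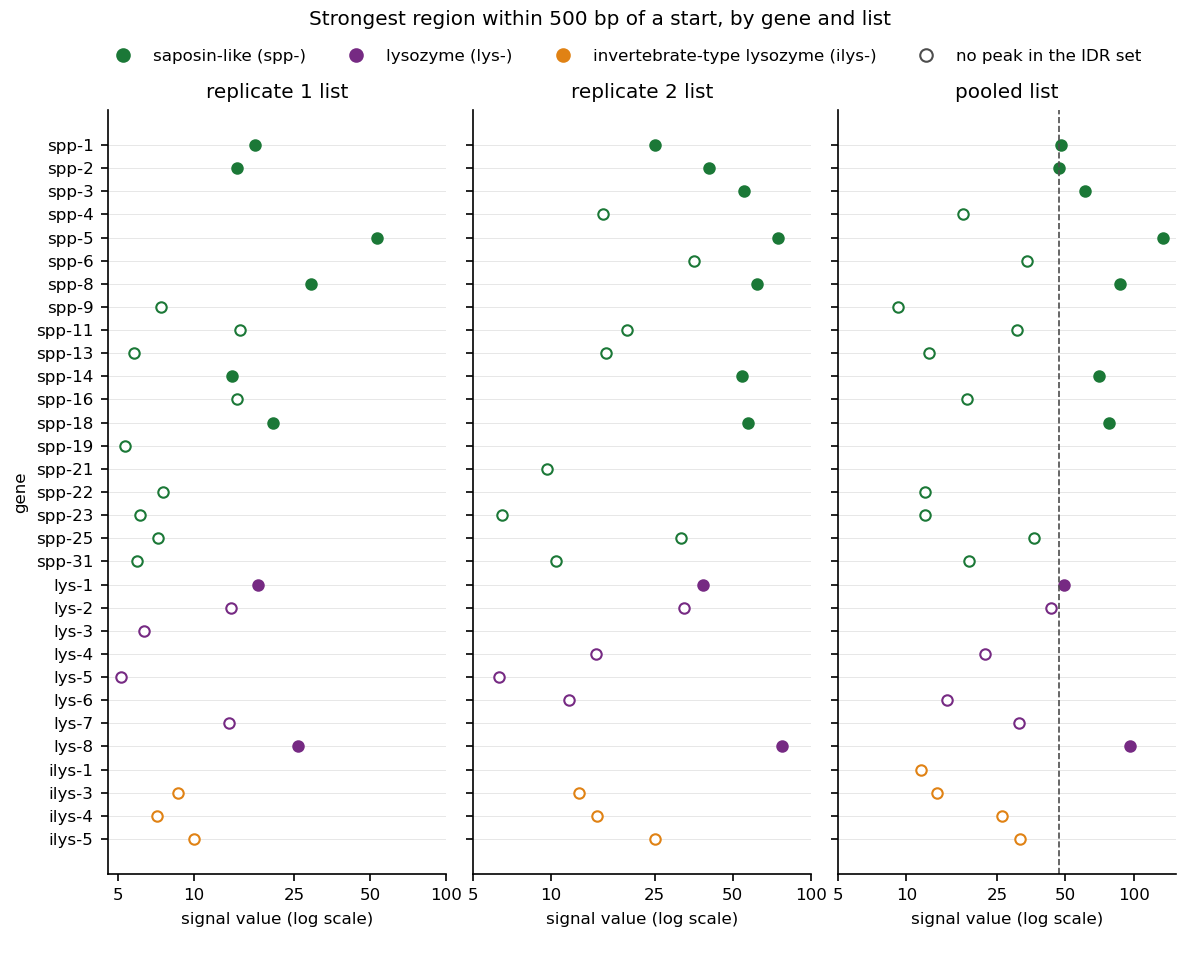
The authors' signal of the strongest region with a summit within 500 bp of a start (log scale), in a panel each for replicate 1, replicate 2 and the pooled list, 1 row for each of the 31 genes with a region in any of them. Filled points are genes with a peak, and the dashed line marks the lowest signal of the set, 46.7. Among the 9 genes with a peak spp-5 is highest in the pooled list, at 134, and spp-2 lowest, at 46.7. Signal scales differ between lists, so only the order within a list is comparable.

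As a group the 9 peaks were of ordinary strength and place for this set. All 9 had the same deposited −log10 q, 3.87, and all were 360 bp wide, as were 88.5% of the 3457 peaks. Their median rank was 1561, beside 1602 over all genes with a peak, and 5 of the 9 were among the 1728 strongest peaks, beside 53.8% of all genes with a peak. The summits lay upstream of the start in 7 of 9, beside 86.8% of all 2133 pairs of a gene and a peak, with a median of 144 bp upstream, beside 167 bp. No other protein-coding gene had a start within 500 bp of any of the 9 summits. In a search suited to closely similar sequence, none of the 9 regions had another match elsewhere in the genome (expected number of chance hits of 1e-05 or below). More diverged copies could have been missed. Many worm transcripts are trans-spliced, and an annotated start can then lie downstream of the true start of transcription.

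**Figure D3:**
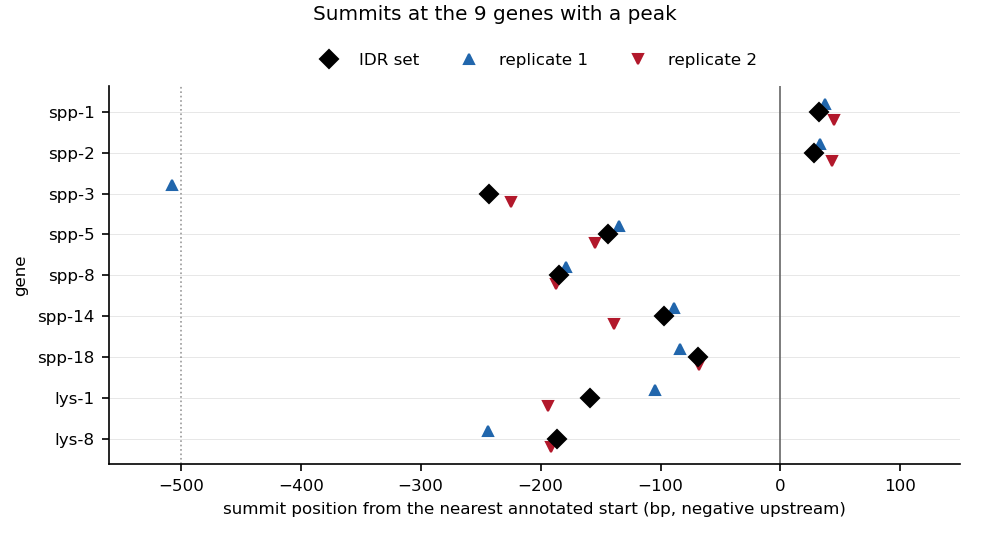
Position of each peak's summit relative to the annotated start (horizontal axis, bp, negative is upstream) for the 9 genes with a peak, with the summits of the overlapping replicate regions as triangles and the 500 bp limit as a dotted line. The summits of spp-1 and spp-2 lie 32 and 28 bp after the start and the other 7 lie upstream. The replicate 1 summit shown for spp-3, 507 bp upstream, is that of a region overlapping only the edge of the peak.

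Regions of these genes ranked better in replicate 2 more often than in replicate 1. Of 18 genes with a region near a start in both replicate lists, 14 ranked better in replicate 2, all but spp-1, spp-5, spp-11 and spp-23. The strongest region near a start was taken in each list, and the 2 regions compared need not overlap. They did not overlap at spp-13, spp-31, ilys-3 and ilys-5, all of which are among the 14, so there different sites were compared. Over all protein-coding genes with a region in both lists the share was 52.5% (2897 of 5521). Among genes with a peak it was 6 of 8 here and 54.5% over all genes.

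**Figure D4:**
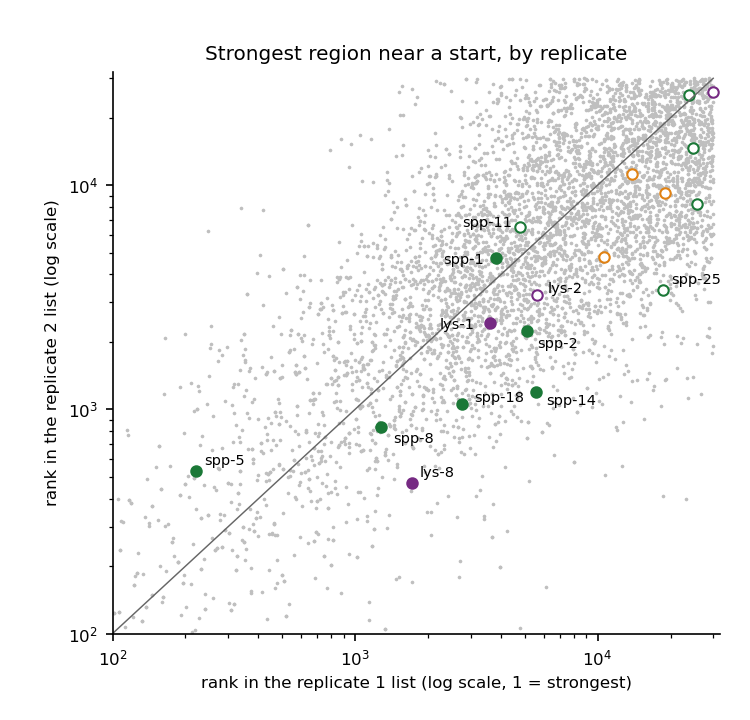
Rank of the strongest region near a start in replicate 1 (horizontal axis) and replicate 2 (vertical axis), both on log scales with rank 1 the strongest, for all genes with a region in both lists (grey) and for the saposin-like and lysozyme genes (coloured; filled where there is a peak). Points with a rank under 100 lie outside the axes. spp-5 lies near the line of equal ranks, at 221 and 529, while spp-14 lies far below it, at 5581 and 1195.

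Genes just below the set included further lysozymes and saposin-like genes. The strongest pooled region that was no peak was that of lys-2, a lysozyme raised by infection in the worm, at rank 3873 with a signal of 43.1 and a summit 109 bp upstream, just outside the set's lowest signal of 46.7. It ranked 5651 in replicate 1 (signal 14.1) and 3234 in replicate 2 (signal 32.5). The next were spp-25 at rank 4866 (signal 36.3), spp-6 at rank 5285 (signal 34.0), ilys-5 at rank 5840 (signal 31.5) and lys-7, a lysozyme needed for normal resistance to several microbes, at rank 5868 (signal 31.4). For the last 4 genes the replicates ranked the site unequally or listed it once. For spp-25 the ranks were 18668 in replicate 1 and 3395 in replicate 2, and for ilys-5 the regions overlapping the pooled one ranked 12421 and 4782. For spp-6 a region was found in replicate 2 only, at rank 2829, and for lys-7 in replicate 1 only, at rank 5833. The region given for spp-6 lies between spp-6 and spp-2 and is nearer to spp-2, with its pooled summit 341 bp upstream of spp-6 and 182 bp upstream of spp-2, and its replicate 2 summit 336 and 187 bp upstream of them. Each count that includes spp-6 rests on a region whose summit is also within 500 bp of the start of spp-2. TGATAA lay within 50 bp of the summit in 3 of these 5 regions, and in 6 of the strongest regions of all 18 genes that had a pooled region but no peak (33.3%). Over all 5518 protein-coding genes with a pooled region but no peak this share was 17.7%, and it was 28.9% over all peaks.

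With a looser limit more genes of each family were counted. With any pooled region of q under 0.05 the count was 16 of 47 (34.0%), beside 20.7% of all genes. It added spp-6, spp-11, spp-25, lys-2, lys-7, ilys-4 and ilys-5 to the 9. With any pooled region at all it was 27 of 47 (57.4%), beside 37.9% of all genes, made up of 17 saposin-like, 6 lys- and 4 ilys- genes. In the replicates a region of q under 0.05 stood near 12 genes in replicate 1 (25.5%, beside 20.0% of all genes) and near 19 in replicate 2 (40.4%, beside 23.8%). The ilys- genes had 0 of 6 in replicate 1 and 3 of 6 in replicate 2.

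The other genes had weak regions or none. In all, 22 genes without a peak had a region of some rank within 500 bp in at least 1 of the 3 lists, of which 4, spp-19, spp-21, lys-3 and lys-5, had one in a replicate list only. No region was listed for 16 genes, spp-7, spp-10, spp-12, spp-15, spp-17, spp-20, spp-24, spp-26, spp-27, spp-28, spp-29, spp-30, lys-9, lys-10, ilys-2 and ilys-6. Each list holds only its 30000 strongest regions, so a gene without one is not shown to lack binding. The intestinal lysozyme gene ilys-3 had a weak pooled region at rank 18160 (signal 13.6).

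A single gene cluster on the X chromosome held 3 of the 9 peaks. Of the 12 genes on X, 4 had a peak, beside 10.8% of all genes on X. Among these, spp-3, spp-2 and spp-5 belong to a cluster of 5 saposin-like genes, with spp-6 and spp-4, within 5386 bp (chrX:7314969-7320354). Its other members had regions below the set, spp-6 at rank 5285 of the pooled list with its summit 341 bp upstream and spp-4 at rank 12499 (signal 17.7). The spp-2 peak lay 551 bp upstream of spp-6, which is transcribed the other way, so spp-6 is counted at 1000 bp but not at 500 bp. Between spp-4 and spp-5 the pooled list had regions of rank 5086 (signal 35.1) and 6060 (signal 30.6), neither of them a peak.

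**Figure D5:**
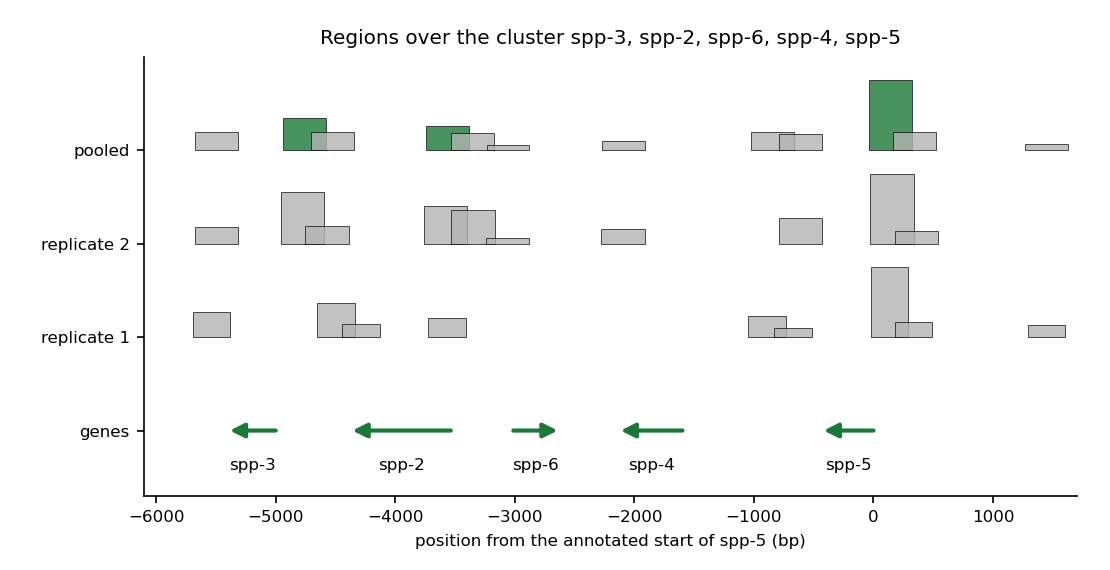
Regions of the pooled list and both replicate lists over the cluster of spp-3, spp-2, spp-6, spp-4 and spp-5 on the X chromosome, against position from the annotated start of spp-5 (bp), with arrows for the genes. Bar height is the signal scaled within each list to its strongest region here, and green bars are peaks. The spp-5 peak is the highest in the pooled list and in both replicates.

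In all, 24 of the 47 genes lay in 8 clusters with gaps of at most 5 kb. Besides the X cluster, lys-1, lys-2 and lys-3 on chromosome V had 1 gene with a peak, and spp-10 and spp-8 on chromosome IV had 1. The other 5 clusters had none, among them lys-4, lys-5 and lys-6, and ilys-3, ilys-2 and ilys-1, all on chromosome IV. Genes of a cluster share flanking sequence and are not independent. By chromosome, chromosome IV had 2 of 14 genes with a peak (10.6% of all genes there), V had 1 of 11 (8.33%), II had 1 of 3 (9.63%), III had 1 of 2 (12.3%) and I had 0 of 5 (11.8%).

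Regulators of intestinal defence were counted in the same way, beside the 10.3% of all protein-coding genes with a peak. Any annotated start counted, so a gene with more starts had more places to be counted. The shares of these lists and of the families below were not adjusted for this. Of 5 intestinal GATA factor genes only elt-2 had a peak (20.0%), at rank 435 with a signal of 115 and a summit 423 bp upstream. In the p38 mitogen-activated protein kinase pathway, 4 of 10 genes had one (40.0%). These were nipi-3, a Tribbles-like pseudokinase, at rank 46 (signal 250), tir-1, the adaptor at the top of the cascade, at rank 769 (signal 94.7), atf-7, a transcription factor at its end, at rank 1399 (signal 74.0), and vhp-1, a phosphatase of the pathway, at rank 1992 (signal 63.0). Of 16 other regulators 7 had one (43.8%), led by zip-2, a bZIP factor of the infection response, at rank 73 (signal 216). After it came the SMAD genes sma-2 at rank 727 (signal 97.4) and sma-3 at rank 920 (signal 88.0), the nuclear receptor gene nhr-49 at rank 1250 (signal 77.8) and the FOXO gene daf-16 at rank 1694 (signal 67.8). The intervals of these shares were wide, 3.62 to 62.4%, 16.8 to 68.7% and 23.1 to 66.8%.

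Other families of secreted or digestive proteins had shares on both sides of the 10.3% of all genes. Of 58 genes of other antimicrobial peptide families 2 had a peak (3.45%, interval 0.951 to 11.7%), fipr-17 at rank 863 and fip-4 at rank 1484. Of 240 C-type lectin genes 18 did (7.5%, interval 4.8 to 11.5%), with clec-72 strongest at rank 412 (signal 118). Of 28 cathepsin and aspartyl protease genes 10 did (35.7%, interval 20.7 to 54.2%), with cpr-4 strongest at rank 402, and asp-6 and asp-12 shared 1 peak at rank 755. Of 67 glucuronosyltransferase genes 20 did (29.9%, interval 20.2 to 41.7%), with ugt-20 strongest at rank 237 (signal 142). The share of the saposin-like and lysozyme genes, 19.1%, lay between those of the peptide and lectin families and those of the proteases and transferases. No difference between families was tested.

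Other distance limits and assignment rules gave the same 9 genes or nearly so, while a stricter list gave fewer. With a limit of 250 bp the count was 9, beside 6.85% of all genes. With the gene of the nearest start only it was 9, beside 8.53%, and with the 5′ end of the gene record in place of all starts it was 9, beside 9.6%. It was 10 with a limit of 1000 bp, beside 13.3%, and 10 with any base of a peak within 500 bp, beside 11.4%, and spp-6 was the gene added in both. Among the 1728 strongest peaks only spp-5, spp-8, spp-14, spp-18 and lys-8 were counted, 5 of 47 or 10.6%, beside 5.53% of all genes.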

How the data were processed

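ChIP-seq peak lists of 2 replicates were analysed as deposited. Per the deposited file listings, the authors called regions on each replicate and on both pooled against a control, and derived the IDR-thresholded set from these lists. The signal and the −log10 q value (a q-value on that scale) of each region are as deposited by the authors. The sources used here do not give the aligner, the caller, their versions, the IDR threshold or how multiply mapping reads were handled. Lists of build ce11 were used and those of ce10 were not.

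Starts came from Ensembl release 115 (WBcel235, which is ce11), and sequence came from RefSeq. Summits were assigned to starts within 500 bp and letters were searched within 50 bp of summits with Python 3.11.15 and numpy 2.4.6. Wilson intervals used scipy 1.17.1, other copies of the peaks were searched with BLAST+ 2.17.0, and the counting was tested on simulated data. The genes and gene lists were chosen with earlier results of these data known, so counts are descriptions with no test. Values are given for every gene with a peak, for the 5 strongest others and for up to 5 genes of each other list. Alternatives were other distance limits, stricter and looser lists, single replicates and other rules for assigning genes.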

Additional observations from a re-analysis of the deposited data

How the results depend on the processing

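The count of 9 genes rested more on replicate 2 than on replicate 1. Without a replicate it ranged from 4 (replicate 1 alone) to 11 (replicate 2 alone), sharing 4 and 8 genes with the 9. The saposin-like count of 7 ranged from 3 to 8 and the lys- count of 2 from 1 to 3. With the 1728 strongest peaks the counts were 5 in all, 4 saposin-like and 1 lys-. With replicate regions of q under 0.05, an alternative chosen after the data were seen, replicate 2 gave 19 in all, 12 saposin-like, 4 lys- and 3 ilys-, and replicate 1 gave 4 lys-. The cause of these differences was not tested. Counts under the other distance limits and assignment rules, and of TGATAA at peaks (5 to 8 beside 7), stayed within 1.5 times. No paired analysis was possible because both samples belong to 1 group. Read depth is unknown, so it cannot be said which weak regions depth limits.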
